A study of Homo sapiens with 3 samples.

Results

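The 26S proteasome is the ATP-dependent protease that degrades ubiquitin-tagged proteins in the cytosol and nucleus. Its 20S core is a barrel of alpha rings (PSMA genes), which gate the entry, and beta rings (PSMB genes), in which PSMB5, PSMB6 and PSMB7 carry the constitutive active sites. The 19S regulatory particle unfolds the substrate with its ATPases (PSMC genes) and binds and removes ubiquitin with its other subunits (most PSMD genes), while PSMG genes encode assembly chaperones. In immune and cytokine-exposed cells PSMB8, PSMB9 and PSMB10 replace PSMB5, PSMB6 and PSMB7, and PSME1 and PSME2 form the PA28 activator. This immunoproteasome shapes the peptides that MHC class I molecules present.

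Transcript levels of these genes were read on 3' expression arrays in A498, a cell line grown from a human kidney carcinoma. Members were all probe sets annotated to 1 gene with a symbol made of PSM, a letter from A to G and a number, which gave 107 probe sets for 44 genes, of 18239 genes with such a probe set in all. There were 3 arrays with no replicates: 1 of cells with the asymptomatic urinary tract strain E. coli 83972, 1 of cells with 60 µM DRB, a nucleoside analogue that blocks elongation by RNA polymerase II, and 1 of control cells with 0.08% DMSO. Confluent cells were taken at 4 h in serum-free medium that held gentamicin in all groups. The labels name DMSO for the control alone and conflict on the bacterial dose, so DMSO cannot be told apart from either treatment and no dose is given. Both treated arrays are set against the same control array. Each comparison is therefore one of single arrays and not of conditions, and no test or p-value is given.

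A gene was read from its brightest probe set, by the mean of the 3 arrays. The gene was kept where at least 1 of the 3 values was as high as the median over all probe sets and arrays, 4.88 on the log2 scale. Of the 44 genes 42 were kept. The exceptions were PSMA8, a testis form of an alpha subunit, which read 3.11 on the E. coli 83972 array, 3.23 on the DRB array and 3.24 on the control array, and PSMB11, the catalytic subunit of the thymoproteasome, which read 4.13, 4.06 and 3.97 on the same arrays in that order. Both were below the filter level on all arrays. PSMB10 had 3 probe sets that the annotation shares with CTRL, so it has no value here, and PSMC5, PSMD7 and PSMD13 were not analysed here. The immunoproteasome genes are thus PSMB8, PSMB9, PSME1 and PSME2. Probe sets bind with different strength, so a level is compared between arrays only and never between genes.

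Of the 10 listed markers of kidney epithelium and renal carcinoma 7 were kept. The filter also kept 11653 of the 18239 genes, so being kept does not by itself mark a cell type. VIM, KRT18, CDH2, KRT8, PAX8, PAX2 (highest value 5.90) and CDH16 (5.79) were kept. The epithelial marker EPCAM was under the filter level on all 3 arrays. Of the leukocyte markers 2 of the 7 listed were kept, CD68, which was bright (highest value 9.41), and CD3E (highest 5.03), while PTPRC, ITGAM, CD14 and LYZ were under that level. Of the endothelial ones 2 of the 5 were kept, PECAM1 (highest 5.60) and VWF (5.59), and CDH5, KDR and TEK were under it. Of the 5 fibroblast ones COL1A1 was kept (highest 5.10), and COL1A2, DCN, LUM and PDGFRA were under it. The medians of all values were 4.90 on the E. coli 83972 array, 4.88 on the DRB array and 4.87 on the control array. The disagreement between the top 2 probe sets of a gene gave a technical SD of a log2 difference of 0.12 with E. coli 83972 against control (robust, 6317 genes; 0.18 as a plain SD) and of 0.15 with DRB against control (0.32 as a plain SD). Where the mean level was at least 9 the robust values were 0.08 and 0.09 (1773 genes). This holds no variation between cultures.

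The promoters of 38 of the 44 genes were in the RefSeq promoter table of GRCh38.p14, as windows of 250 bases before to 50 after a transcript start. Those of the immunoproteasome genes are shown because their induction by interferon is textbook knowledge. Those of PSMD12 and PSME4 follow because these were the lowest and the highest member with E. coli 83972 against control. Capitals mark the antioxidant response element core TGACNNNGC, bound by NRF1 and NRF2, the interferon response core GAAANNGAA and the NF-κB core GGGNNTTCC, each searched on both strands.
PSMB8 (chr6:32843998-32844297, minus strand): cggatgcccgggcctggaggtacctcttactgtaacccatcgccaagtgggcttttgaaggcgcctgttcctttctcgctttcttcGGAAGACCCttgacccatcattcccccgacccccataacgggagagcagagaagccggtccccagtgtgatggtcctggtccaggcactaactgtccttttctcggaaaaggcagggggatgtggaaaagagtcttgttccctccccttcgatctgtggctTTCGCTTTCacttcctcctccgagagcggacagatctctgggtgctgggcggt
PSMB9 (chr6:32853942-32854241, plus strand): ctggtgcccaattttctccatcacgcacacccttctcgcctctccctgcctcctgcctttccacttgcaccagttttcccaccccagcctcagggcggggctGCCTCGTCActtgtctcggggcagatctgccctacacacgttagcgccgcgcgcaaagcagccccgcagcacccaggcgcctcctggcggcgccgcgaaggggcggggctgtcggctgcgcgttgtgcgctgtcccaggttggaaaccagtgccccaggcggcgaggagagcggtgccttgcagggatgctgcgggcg
PSME1 (chr14:24135944-24136243, plus strand): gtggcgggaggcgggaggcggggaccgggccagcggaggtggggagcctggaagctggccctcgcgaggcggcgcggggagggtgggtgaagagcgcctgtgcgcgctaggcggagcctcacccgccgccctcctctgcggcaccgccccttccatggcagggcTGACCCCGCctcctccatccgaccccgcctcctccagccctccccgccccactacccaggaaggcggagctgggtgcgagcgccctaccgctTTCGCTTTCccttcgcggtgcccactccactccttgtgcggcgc
PSME2 (chr14:24146561-24146860, minus strand): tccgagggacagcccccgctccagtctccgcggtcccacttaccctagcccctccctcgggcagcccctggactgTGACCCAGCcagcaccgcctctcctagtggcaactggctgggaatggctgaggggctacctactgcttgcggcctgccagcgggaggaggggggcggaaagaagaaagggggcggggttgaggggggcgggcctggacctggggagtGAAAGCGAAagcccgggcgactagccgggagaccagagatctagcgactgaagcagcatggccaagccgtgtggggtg
PSMD12 (chr17:67366528-67366827, minus strand): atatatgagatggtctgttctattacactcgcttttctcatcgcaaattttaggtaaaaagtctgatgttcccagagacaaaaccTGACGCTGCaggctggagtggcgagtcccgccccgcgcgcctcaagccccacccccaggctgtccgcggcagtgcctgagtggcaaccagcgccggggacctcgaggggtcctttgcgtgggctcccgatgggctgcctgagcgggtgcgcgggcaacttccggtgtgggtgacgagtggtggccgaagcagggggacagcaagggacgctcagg
PSME4 (chr2:53970944-53971243, minus strand): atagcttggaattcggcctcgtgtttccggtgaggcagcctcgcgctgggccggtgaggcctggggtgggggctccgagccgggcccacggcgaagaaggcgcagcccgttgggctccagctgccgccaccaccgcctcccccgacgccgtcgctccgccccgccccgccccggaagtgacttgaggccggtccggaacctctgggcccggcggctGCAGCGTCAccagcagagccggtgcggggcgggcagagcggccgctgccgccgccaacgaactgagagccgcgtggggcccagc

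The interferon response core stands in the shown windows of PSMB8, PSME1 and PSME2, and the window of PSMB8 also has an NF-κB core. Another listed window of PSMB8 has none of the 3. The antioxidant response element core is in 5 of the 6 shown, all but that of PSMB8, and the window of PSMB9 has neither of the others. In the gene table TAP1 lies between PSMB8 and PSMB9, and TAP2 precedes PSMB8, while EMC9 separates PSME1 and PSME2 and IRF9 follows PSME2 after RNF31. Over all listed windows of a gene, 14 of 38 members (36.8%) had the antioxidant response element core, against 16.1% of the 27305 genes of the table. The interferon response core was in 18.4% of members against 9.86% of all genes and the NF-κB core in 15.8% against 7.95%. The CCAAT box CCAAT, bound by NF-Y, was in 47.4% against 39.7%, and the E-box CACGTG in 7.89% against 8.77%. These are matches of letters and show no binding.

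Proteasome genes stayed close to the control with E. coli 83972. None of the 42 kept genes was at least 2-fold higher, against 1.91% of the 11653 genes kept on the arrays, and none was at least 2-fold lower, against 0.652%. Of the 2302 kept genes with a mean level of at least 9, 30 were higher and 9 lower by that rule. With shares this small, counts of 0 among 42 genes are near the background and say little by themselves. The differences of the members ran from −0.33 for PSMD12 to 0.32 for PSME4 on the log2 scale, with an SD over genes of 0.12. The SD was 0.40 over all kept genes and 0.33 over those with a mean level of at least 9. The members' median was −0.06, against −0.03 over all kept genes and −0.07 over those bright ones. Among the 33 members that bright it was −0.09. Below 0 lay 34 of the 42, against 54.7% of all kept genes and 65.6% of the 2302 kept genes with a mean level of at least 9. That count of 34 was 25 with a loess correction on level (49.2% of all kept genes below 0), 38 with centring on 24 poly-A spike-in probe sets (62.4%), 29 on the 12 of them with the r2 prefix (50.6%) and 42 on hybridization spike-ins (89.0%). Of these, the hybridization set moves every gene by −0.34. Members are bright, with 33 of the 42 at a mean level of at least 9, so the share among bright genes is the nearer background.

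With DRB the members also stayed near control while many other transcripts were lower. None was at least 2-fold lower, against 10.2% of all kept genes and 69 of the 2302 with a mean level of at least 9, and none was at least 2-fold higher, against 0.129%. The member differences ran from −0.58 for PSMD12 to 0.31 for PSME1, with an SD over genes of 0.20, against 0.64 over all kept genes and 0.37 over the bright ones. The median was 0.02, against 0.05 over all kept genes. Below 0 lay 17 of the 42, against 44.2% of all kept genes and 40.9% of the bright ones. With centring on the 24 poly-A spike-ins, which moves every gene by −0.67 against control, the median of members was −0.65 and that of all kept genes −0.62, so all 42 members lay below 0, as did 98.8% of all kept genes. PSMD12, PSMC6 and PSMG3 were then at least 2-fold lower, against 25.4% of all kept genes. With the 12 r2 poly-A spike-ins the shift is −0.84, and 9 members were at least 2-fold lower, against 32.7%. The sign of the members' median with DRB thus depends on the scaling.

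**Figure D1:**
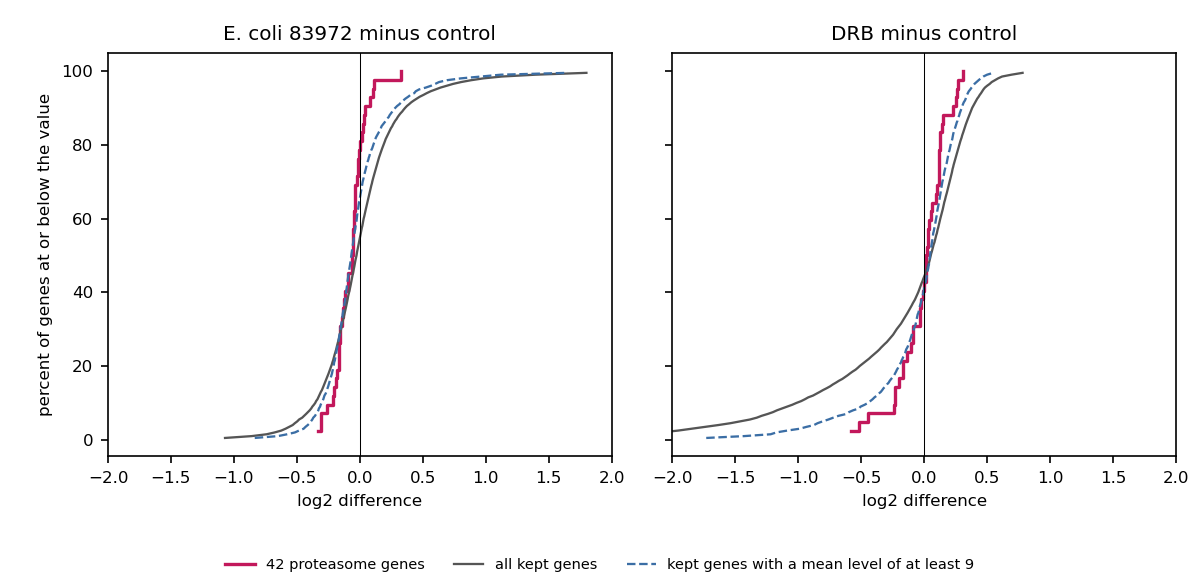
Cumulative percent of genes (y axis) at or below a log2 difference (x axis) for the 42 kept proteasome genes (stepped line), all 11653 kept genes (solid) and the 2302 with a mean level of at least 9 (dashed), E. coli 83972 minus control on the left and DRB minus control on the right. The long lower tail of all genes with DRB, where 10.2% were at least 2-fold lower, has no proteasome gene in it as deposited. The lowest stands at −0.58 for PSMD12. Of the 2302 bright genes, the nearer background, 69 were at least 2-fold lower. Centring on poly-A spike-ins puts 3 members at least 2-fold lower, against 25.4% of all kept genes. On the r2 poly-A spike-ins 9 members are, against 32.7%.

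The catalytic immunoproteasome genes differed little from control with E. coli 83972 and, as deposited, were not above it. PSMB8, which encodes the chymotrypsin-like immunosubunit, read 9.86 on the E. coli 83972 array, 10.06 on the DRB array and 9.96 on the control array. PSMB9, the gene of the immunosubunit that takes the place of PSMB6, read 9.45 on the E. coli 83972 array, 9.68 on the DRB array and 9.45 on the control array. For both genes the DRB array had the top value, and the E. coli 83972 array was at or below the control. The differences from control with E. coli 83972 were −0.09 for PSMB8 and −0.01 for PSMB9, of which the first is past the technical SD of 0.08 for bright genes and under the 0.12 over all. The second probe set of PSMB8 gave −0.19, and the mean of both was −0.14 ± 0.07.

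The PA28 activator genes lay on either side of control by less than the technical SD. PSME1 read 9.48 on the E. coli 83972 array, 9.76 on the DRB array and 9.45 on the control array. PSME2 read 10.73 on the E. coli 83972 array, 10.93 on the DRB array and 10.78 on the control array. Against control, E. coli 83972 differed by 0.04 for PSME1 and −0.05 for PSME2. The median of the 4 immunoproteasome genes was −0.03 with E. coli 83972, equal to that of all kept genes to 2 decimals.

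With DRB all 4 immunoproteasome genes were above control on the deposited scale, as were 55.8% of all kept genes. Below control lay 3 of the 4 with centring on hybridization spike-ins, against 74.0% of all kept genes. On either poly-A set all 4 did, against 98.8% of all kept genes on the wider set and 99.6% on the r2 set. The differences were 0.31 for PSME1, 0.23 for PSMB9, 0.14 for PSME2 and 0.10 for PSMB8, with a median of 0.19, against 0.05 for all kept genes and 0.02 for the other 38 members. The 3 probe sets of PSME1 averaged 0.35 ± 0.06 and the 2 of PSMB9 that reached the filter 0.30 ± 0.10 (SD over probe sets). The median of the 4 was −0.48 with centring on poly-A spike-ins and −0.04 on hybridization spike-ins, which move all genes alike.

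Of the constitutive counterparts PSMB5 and PSMB6 were lower than control with E. coli 83972 by more than the technical SD, by −0.16 and −0.18, and PSMB7 was not (−0.02). The median over the genes with a mean level of at least 9 was −0.07 there, and 25% of them lay at or below −0.18. Both differences are thus common among bright genes. With DRB the 3 differed by −0.09, 0.12 and 0.00. PSMB5, the chymotrypsin-like subunit, read 10.16 on the E. coli 83972 array, 10.23 on the DRB array and 10.32 on the control array. PSMB6, the caspase-like subunit, read 11.47 on the E. coli 83972 array, 11.78 on the DRB array and 11.65 on the control array. PSMB7, the trypsin-like subunit, read 11.58, 11.60 and 11.60 on the E. coli 83972, DRB and control arrays. The control array had the top value for PSMB5 and the DRB array for PSMB6, and the widest gap between arrays was that of PSMB6 between E. coli 83972 and DRB, −0.30.

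**Figure D2:**
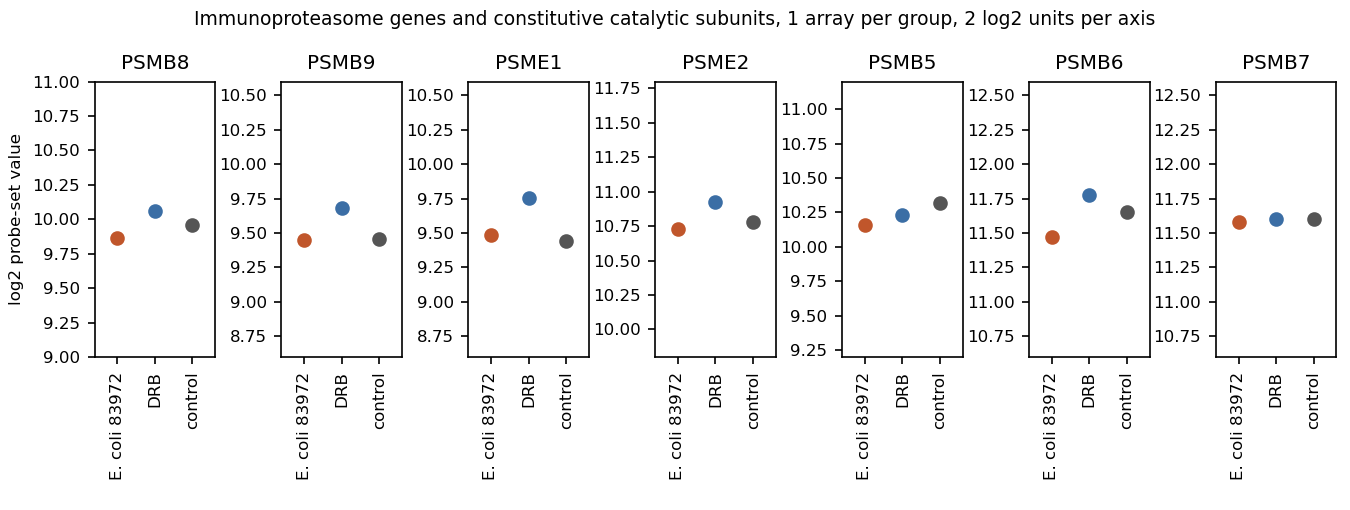
Log2 probe-set value (y axis, 2 log2 units in each panel) on the E. coli 83972, DRB and control arrays (x axis, 1 point per array) for 4 immunoproteasome genes and the 3 constitutive catalytic subunits. PSMB8, PSMB9, PSME1 and PSME2 have their top value on the DRB array of the deposited scale, by 0.10 to 0.31 over control. Centring on poly-A spike-ins puts all 4 below control, as it does 98.8% of all kept genes.

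Regulators of the immunoproteasome genes differed more with E. coli 83972. IRF1, the transcription factor that binds the interferon response core, read 9.28 on the E. coli 83972 array, 5.89 on the DRB array and 6.57 on the control array. The interferon gamma receptor genes IFNGR1 and IFNGR2 were higher than control by 1.76 and 1.23 with E. coli 83972, and NFKB1, which encodes an NF-κB subunit, by 1.54. Of the 18 listed regulators 14 were kept, and their median was 0.43 with E. coli 83972, against −0.03 over all kept genes. Of the 14, 4 were at least 2-fold higher, against 1.91% of all kept genes, and none lower, against 0.652%. With DRB none of the 14 was at least 2-fold lower on the deposited scale, against 10.2%, or higher, against 0.129%. IRF9 and IRF2 differed by −0.83 and −0.79 there. The 24 poly-A spike-ins move all genes by −0.67 with DRB. That puts IRF9, IRF2, IRF1, IFNGR1 and NLRC5 at least 2-fold lower, against 25.4% of all kept genes. NLRC5, the transactivator of MHC class I genes, differed by −0.22 with E. coli 83972 and −0.47 with DRB. The interferon genes IFNB1 and IFNG were under the filter level on all 3 arrays.

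The antigen processing genes, which share the pathway, were not past 2-fold either. Of the 15 listed 14 were kept, with a median of 0.09 with E. coli 83972 and 0.25 with DRB. Those over all kept genes were −0.03 and 0.05. At least 2-fold higher were 1.91% and 0.129% of all kept genes, and at least 2-fold lower 0.652% and 10.2%. The peptide transporter genes next to PSMB8 and PSMB9 had differences of 0.54 (TAP2) and 0.39 (TAP1) with E. coli 83972, and of 0.76 and 0.31 with DRB. HLA-F differed by 0.39 and TAPBP, the gene of tapasin, by 0.29 with E. coli 83972. CALR, a chaperone of the peptide-loading complex, differed by 0.73 with DRB, and TAPBP by 0.39. Centring on hybridization spike-ins moves all genes by −0.34 with E. coli 83972 against control and −0.23 with DRB. The differences of HLA-F and TAP1 then shrink accordingly. With E. coli 83972 the difference of TAPBP and the list's median turn below 0. The 24 poly-A spike-ins move all genes by −0.67 with DRB, which turns the sign of TAP1, TAPBP, HLA-F and the list's median.

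In the alpha ring 7 genes were kept, and all stayed within 0.17 of control on both treated arrays. With E. coli 83972 they ran from −0.17 for PSMA3 to 0.12 for PSMA6, around a median of −0.06. With DRB they ran from −0.17 for PSMA5 to 0.10 for PSMA7, with a median of −0.03. PSMA1 was the one whose probe sets parted, with −0.01 in the brighter and −0.85 in the dimmer with E. coli 83972, against −0.03 and −0.20 with DRB. The 7 constitutive beta ring genes ran from −0.18 for PSMB6 to −0.02 for PSMB7 with E. coli 83972, and from −0.09 for PSMB5 to 0.12 for PSMB6 with DRB. As deposited all 7 lay below 0 with E. coli 83972, as did 54.7% of all kept genes and 65.6% of the bright ones. The 12 r2 poly-A spike-ins move every gene by 0.024 there, which puts PSMB7 (−0.022) above 0. Their medians were −0.12 and 0.00.

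The ATPases of the 19S base spread with an SD over genes of 0.10 with E. coli 83972, as did the alpha ring, and of 0.29 with DRB, against 0.09 for the alpha ring. PSMC6, an ATPase of the ring, read 9.49 on the E. coli 83972 array, 9.28 on the DRB array and 9.80 on the control array. It differed from control by −0.31 with E. coli 83972 and −0.52 with DRB, lower on both treated arrays under all scalings run, but by −0.02 and −0.18 with the mean over its 2 probe sets, 1 of which was under the filter level. PSMC1 differed by −0.26 with E. coli 83972 and 0.02 with DRB, and PSMC3 by −0.16 and 0.04. PSMC4 differed by −0.14 and 0.25. PSMC2 had probe sets on both sides with DRB, −0.23 in the brighter and 0.31 in the other. The median of the 5 kept ATPases was −0.16 with E. coli 83972 and 0.02 with DRB.

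PSMD12, a subunit of the lid of the 19S particle, was the lowest member in both comparisons, which share the control array. It read 9.52 on the E. coli 83972 array, 9.27 on the DRB array and 9.85 on the control array. All 4 of its probe sets were lower than control on both treated arrays. The mean over them was −0.39 ± 0.04 with E. coli 83972 and −0.51 ± 0.09 with DRB (SD over 4 probe sets), so the spread between probe sets was small beside the difference. The representing probe set stood at 0.795 of the control level with E. coli 83972 and at 0.668 with DRB. No scaling tried turned either sign.

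The other 8 non-ATPase subunits of the 19S particle were nearer to control. With E. coli 83972 the lowest of them was PSMD2, which encodes a scaffold of the base, at −0.21, but its other 2 probe sets gave 0.05 and 0.06, and the mean was −0.03 ± 0.16. The highest was PSMD1 at 0.08. With DRB PSMD11 and PSMD6, both of the lid, differed by −0.23 and −0.20, and PSMD1 by 0.12. PSMD2 also differed by probe set with DRB, 0.07 in the brightest of 3 and 0.49 and 0.71 in the others. PSMD14, the deubiquitinase of the lid, differed by −0.04 and −0.10, and PSMD4, a ubiquitin receptor, by −0.04 and 0.02. PSMD3 and PSMD8 lay within 0.04 of control with E. coli 83972 and at 0.12 with DRB.

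Among the 6 lowest members were the assembly chaperones PSMG2 and PSMD10 with E. coli 83972, and PSMG3 and PSMD5 with DRB. PSMG2 read 9.47 on the E. coli 83972 array, 9.64 on the DRB array and 9.78 on the control array, so it was lowest with E. coli 83972 (−0.30; −0.13 with DRB). PSMG3 read 7.97 on the E. coli 83972 array, 7.49 on the DRB array and 7.94 on the control array, and was apart on the DRB array only (−0.44; 0.03 with E. coli 83972). PSMG2 and PSMG3 each have 1 probe set, so no second reading bears on them. PSMD5, a chaperone of base assembly, differed by −0.24 with DRB and 0.02 with E. coli 83972. PSMD10, known as gankyrin, and PSMD9 differed by −0.21 and −0.19 with E. coli 83972 and by 0.11 and 0.12 with DRB. PSMG1 differed by −0.17 in both comparisons. PSMG4 was 0.26 above control with DRB, with a mean of 0.31 ± 0.16 over 5 probe sets, and −0.04 with E. coli 83972.

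PSME4, the gene of the activator PA200, had the highest difference with E. coli 83972. It read 9.11 on the E. coli 83972 array, 8.93 on the DRB array and 8.78 on the control array. Of its 4 probe sets that reached the filter, 1 did so on the E. coli 83972 array alone and is left out of the mean. The other 3 were above control with E. coli 83972 as deposited, by 0.31 ± 0.05 (SD over probe sets). But centring on hybridization spike-ins brings the brightest probe set from 0.32 to −0.01. With DRB the 4 disagreed by 2.15 on the log2 scale. The brightest 2 gave 0.15 and 0.36, while a dimmer one gave −1.79, from 4.70 on the DRB array against 6.50 on the control array. The fourth gave −0.92, from 3.66 on the DRB array against 4.57 on the control array, both under the filter level. Among the 93 probe sets of members that reached the filter, the one at −1.79 alone passed 2-fold with DRB, and none did with E. coli 83972. PSME4 is thus 0.15 by its brightest probe set and −0.43 ± 1.19 by the mean of those 3, and its direction with DRB rests on the probe set.

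**Figure D3:**
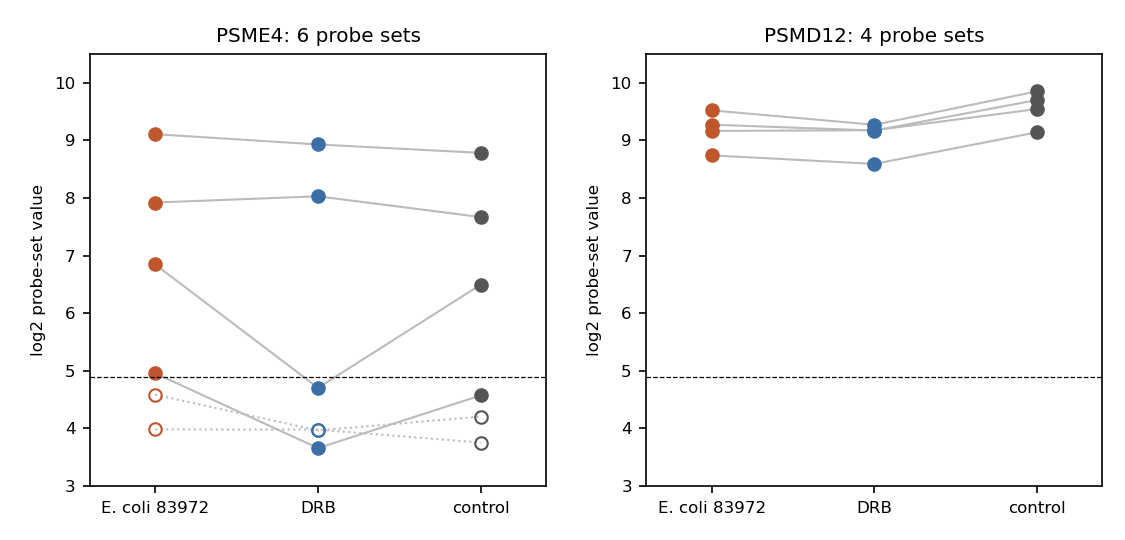
Log2 probe-set value (y axis) of every probe set of PSME4 (left, 6) and PSMD12 (right, 4) on the E. coli 83972, DRB and control arrays (x axis). Filled points belong to probe sets that reach the filter level of 4.88 (dashed line) on some array and open points to the others, and lines join the values of a probe set. All PSMD12 probe sets are lower on both treated arrays than on the control array, while those of PSME4 part on the DRB array, with 1 at 4.70 against 6.50 on the control array.

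PSME3, the nuclear activator PA28 gamma, read 8.21 on the E. coli 83972 array, 8.38 on the DRB array and 8.11 on the control array. It differed by 0.10 with E. coli 83972 and 0.27 with DRB, and the mean over its 3 probe sets with DRB was 0.14 ± 0.12. PSMF1, an inhibitor of the 20S core, differed by −0.06 and 0.02 in its brightest probe set, while 2 dimmer ones both gave 0.47 with DRB. A further probe set reached the filter on the DRB array alone and is left out.

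**Figure D4:**
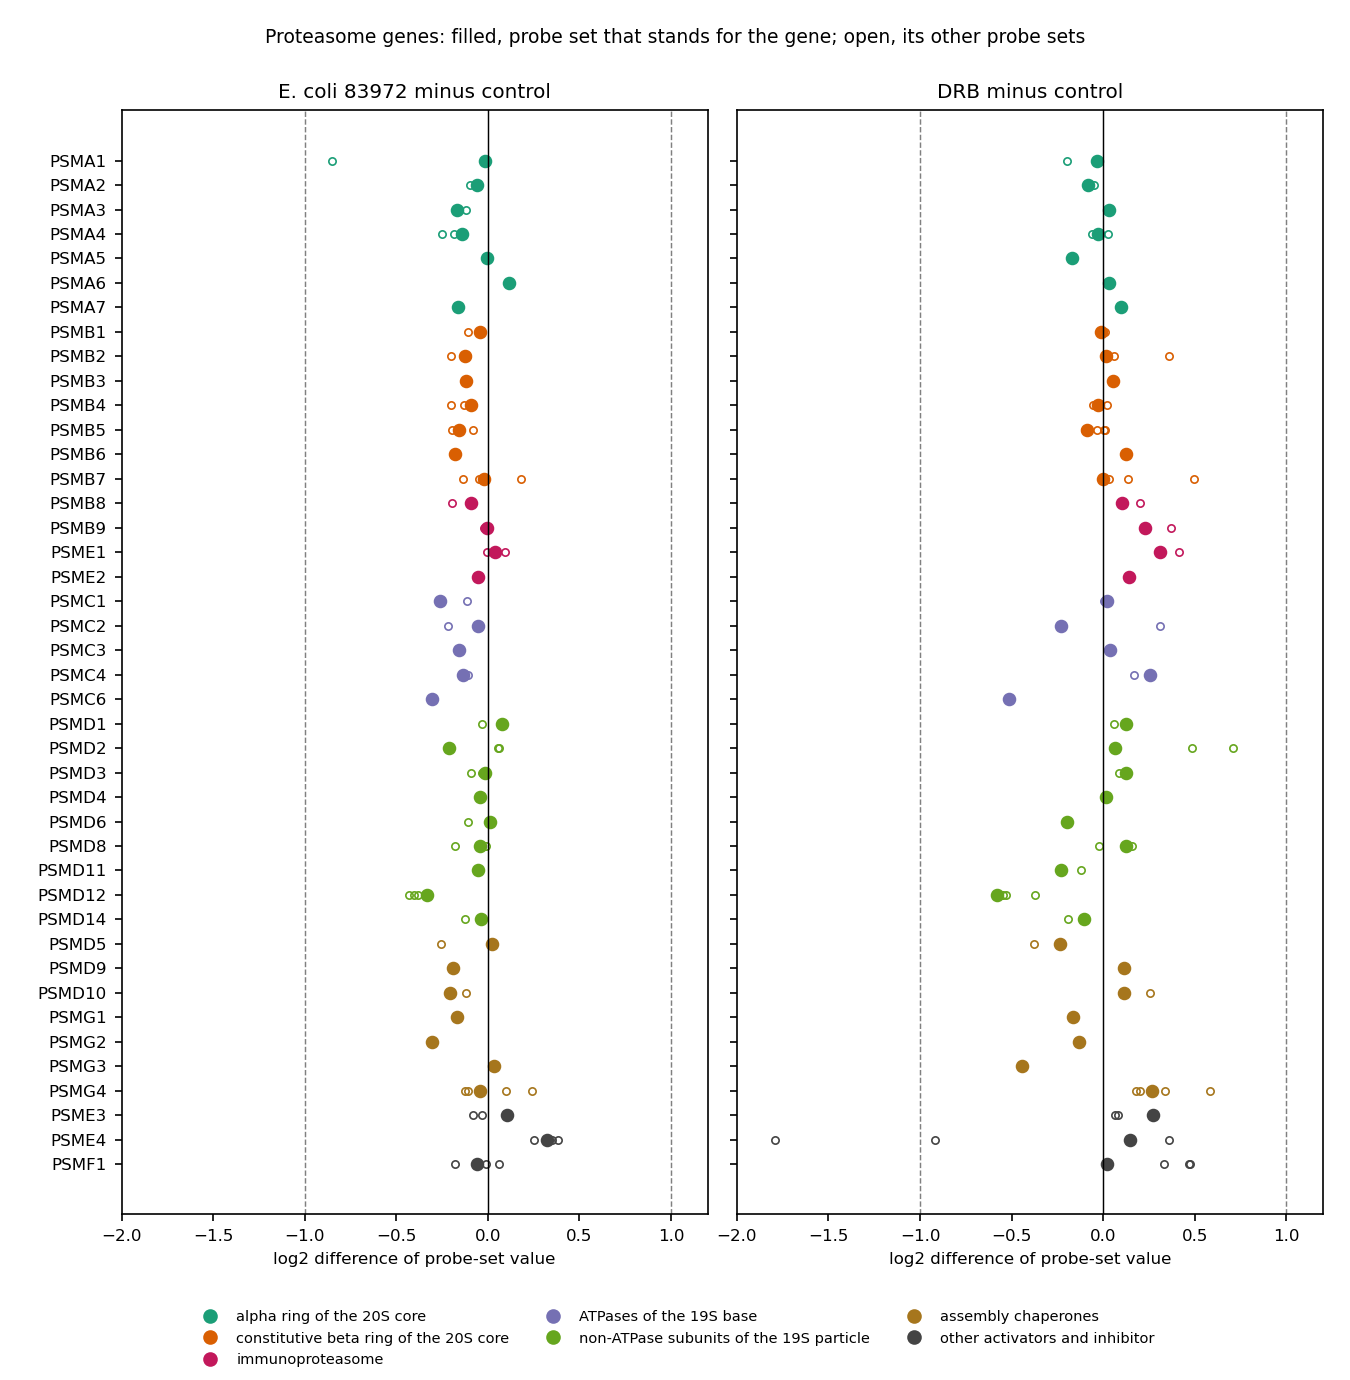
Log2 difference from control (x axis) of each of the 42 kept proteasome genes (y axis, by role and colour) with E. coli 83972 (left) and DRB (right). Filled points are the probe set that represents the gene, open points its other probe sets that reach the filter, and dashed lines mark 2-fold. Filled points lie between −0.33 and 0.32 with E. coli 83972 and between −0.58 and 0.31 with DRB, and 1 open point, of PSME4, lies past 2-fold at −1.79.

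No member reached 1.5-fold in any comparison either, against 5.19% of all kept genes higher and 3.06% lower with E. coli 83972, and 2.03% higher and 18.1% lower with DRB. A threshold of 1.25-fold was therefore added after the values were seen. With E. coli 83972, PSME4 alone was higher by that rule, against 11.5% of all kept genes, and PSMD12 alone lower, against 12.0%. With DRB, 3 members were lower, PSMD12, PSMC6 and PSMG3, against 25.8% of all kept genes and 14.0% of those with a mean level of at least 9. None was higher with DRB, against 15.4% and, among the bright genes, 8.25%. Of the bright genes 8.77% were higher and 8.60% lower with E. coli 83972. The level of 9 that marks bright genes was likewise set after the values were seen.

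Set directly against each other, the treated arrays differed by less than 2-fold in the probe set that stands for each member. Other probe sets of PSME4 did not follow, with 2.14 and 1.30, the second from the one that reached the filter on the E. coli 83972 array alone. None of the 42 was at least 2-fold higher with E. coli 83972 than with DRB, against 12.3% of all kept genes, and none lower, against 0.386%. At 1.5-fold the shares of all kept genes were 19.3% and 5.72%, again with no member. The difference was highest for PSMG3 at 0.48 and lowest for PSMC4 at −0.39, the only members past 1.25-fold, against 26.4% of all kept genes higher and 22.6% lower. After PSMG3 came PSMD5 (0.26), PSMD12 (0.25), PSMD6 (0.21), PSMC6 (0.21) and PSMD11 (0.18). After PSMC4 came PSMD10 (−0.32), PSMD9, PSMG4 (both −0.31), PSMB6 (−0.30) and PSMC1 (−0.28). On the deposited scale all 4 immunoproteasome genes were lower with E. coli 83972 than with DRB, by −0.20 to −0.27. Of all kept genes 57.3% lay below 0 there. Centring on poly-A spike-ins turned the sign of all 4, and only 4.47% of all kept genes then lay below 0. As deposited, the median of the 4 was −0.22 and that of the other 38 members −0.07, against −0.07 over all kept genes.

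Factors that work with the proteasome but fall outside the symbol rule spread more widely than the members, but less than all kept genes. Their SD over genes was 0.24 with E. coli 83972 and 0.50 with DRB, against 0.40 and 0.64 over all kept genes. Of 13 partner genes none was past 2-fold with E. coli 83972, against 1.91% of all kept genes higher and 0.652% lower. With DRB 1 was at least 2-fold lower on the deposited scale, against 10.2%. It was ZFAND5, which encodes an activator of the 26S particle and read 11.43 on the E. coli 83972 array, 9.35 on the DRB array and 10.78 on the control array. It differed by 0.65 with E. coli 83972 and −1.43 with DRB. AKIRIN2, which carries proteasomes into the nucleus, differed by 0.15 with E. coli 83972 and −0.95 with DRB, and the ubiquitin ligase gene UBE3A by 0.50 and −0.52. The 24 poly-A spike-ins move all genes by −0.67 with DRB. AKIRIN2 and UBE3A are then at least 2-fold lower as well, against 25.4% of all kept genes. POMP, the maturation chaperone of the core, SEM1 and ADRM1, further subunits of the 19S particle, differed by at most 0.15 from control in both comparisons. Partner medians were 0.04 with E. coli 83972 and 0.05 with DRB.

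NFE2L1 encodes NRF1, the factor that raises proteasome gene transcription when the proteasome is impaired. It differed by 0.30 with E. coli 83972 and 0.10 with DRB. Its relative NFE2L2 read 12.04 on the E. coli 83972 array, 10.46 on the DRB array and 11.22 on the control array. The small MAF genes, whose products pair with both at antioxidant response elements, were higher with E. coli 83972 by 2.24 (MAFF) and 0.78 (MAFG), and differed by −0.11 and −0.41 with DRB. MAFF read 7.21 on the E. coli 83972 array, 4.86 on the DRB array and 4.97 on the control array. Its DRB and control values are close to the filter level of 4.88, so its DRB difference cannot show whether it fell. Of the 7 kept genes of this list MAFF alone was past 2-fold with E. coli 83972, against 1.91% of all kept genes higher. On the deposited scale none was with DRB, against 10.2% lower, and SYVN1 differed by −0.55 there. The shift of −0.67 from the 24 poly-A spike-ins puts NFE2L2, SYVN1 and MAFG at least 2-fold lower with DRB, against 25.4% of all kept genes. The ubiquitin gene UBB differed by −0.05 and −0.04, and UBA1, the main ubiquitin-activating enzyme, by 0.10 and 0.60. Among 8 kept shuttle and segregase genes none passed 2-fold against control, while 10.2% of all kept genes were at least 2-fold lower with DRB. The largest differences were those of UFD1 (−0.35 with E. coli 83972) and BAG6 (0.49 with DRB).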

How the data were processed

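The members, lists, motifs and thresholds were chosen with earlier results of these data known. Values were the deposited probe-set values on a log2 scale, made with RMA and Partek per the submitters' processing notes. The sources used here give no versions and not the number of arrays processed together. RMA subtracts background, brings arrays to nearly one distribution and so reduces a change shared by most transcripts, and it compresses dim probe sets. The table held 49386 probe sets, of which 45259 had 1 gene symbol in the platform annotation, 1327 had several and name no gene here, and 2800 were not listed. For 45178 probe sets the symbol was updated by Entrez identifier from a RefSeq gene table of GRCh38.p14.

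Genes named with values are the 4 measured immunoproteasome genes, their counterparts, the 6 highest and 6 lowest members of each comparison, members under the filter or with probe sets that disagree by 1 or more on the log2 scale, and up to 4 genes from each other list. Further members were named to account for all roles, and further list genes after their values were seen. No test was run, since each group has 1 array, and their number limits the precision. A technical SD is that of the difference between the 2 brightest probe sets of a gene divided by the square root of 2. Calculations used Python 3.11.15, pandas 2.3.3 and numpy 2.4.6, and were tested on simulated data. Alternatives were the mean over probe sets, probe sets with the plain suffix, no filter, centring on 24 poly-A or 9 hybridization spike-in probe sets, a loess correction on level (statsmodels 0.14.6, span 0.4) and a threshold of 1.5-fold. The poly-A set was first taken as the 12 probe sets with the r2 prefix and widened to 24 after the shift from those 12 had been seen, so both are reported. The narrower set and the threshold of 1.25-fold count as added after seeing the data.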

Additional observations from a re-analysis of the deposited data

How the results depend on the processing

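No paired analysis was possible because each group has 1 array and all 3 carry the same experiment number. Centring on spike-ins moved the medians, by the same amount as all genes. On hybridization spike-ins the median of the 38 other members was −0.40 with E. coli 83972 and −0.21 with DRB, and that of the 4 immunoproteasome genes −0.37 and −0.0445. On the 24 poly-A spike-ins the medians with DRB were −0.65 for the 38 and −0.48 for the 4, and those of E. coli 83972 against DRB were 0.56 and 0.41. The 12 r2 poly-A spike-ins were computed first and replaced as the planned set once their shift was seen. On them these medians were −0.82 and −0.65 with DRB, and 0.80 and 0.65 for E. coli 83972 against DRB. There 9 members were at least 2-fold lower with DRB, against 32.7% of all kept genes. Likewise 9 were at least 2-fold higher with E. coli 83972 than with DRB, against 33.7%. On the 24 poly-A spike-ins 3 members were at least 2-fold lower with DRB, against 25.4% of all kept genes. Of 8 members with plain-suffix probe sets 1 was (PSME4), against 11.5% of all genes with such probe sets. At least 2-fold higher with E. coli 83972 than with DRB was 1 member in each, PSMG3 (against 24.7%) and PSME4 (against 14.3%). At 1.25-fold 1 member was higher and 1 lower with E. coli 83972, 3 were lower with DRB, and between the treated arrays 1 was higher and 1 lower. The other counts stayed at 0, also at 1.5-fold. Of the 84 single-gene differences from control, 10 moved by more than the technical SD with the mean over probe sets and none with loess. Leaving out the filter cannot move them, since the probe set of a kept gene stays the same. With plain-suffix probe sets 5 moved and 11 did not.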
